A study of Homo sapiens with 6 samples.

Results

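The genes described here are the 9 that encode the D-type cyclins, their kinases and the retinoblastoma (RB) family: CCND1, CCND2 and CCND3, CDK2, CDK4 and CDK6, and RB1, RBL1 and RBL2. The rule that picks them uses their names and NCBI Gene IDs and no measured value, although the choice to describe this pathway was made with earlier results of these data known. All 9 were found among the 16623 genes of the series. RNA was taken from MDA-MB-231, a triple-negative breast cancer cell line, grown attached to the dish. The medium held the solvent DMSO or PCI-24781 at 100 nM or 200 nM, and cells were collected after 24 h and after 48 h. PCI-24781 is an inhibitor of histone deacetylases, the enzymes that remove acetyl groups from histones and other proteins. Each of the 6 conditions had 1 library, so no difference below has a replicate check, none has a p-value, and variation between cultures was not measured. Expression is given as FPKM, in which fragment numbers are divided by transcript length and library size, which allows levels to be compared between genes.

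D-type cyclins are made when growth factors signal to a resting or early G1 cell. They bind CDK4 or CDK6, and the complexes phosphorylate the RB protein and its relatives p107 and p130, encoded by RBL1 and RBL2. These pocket proteins hold the E2F transcription factors in check, so their phosphorylation, completed by CDK2 with cyclin E, lets genes for DNA replication be transcribed. CCND1 is often overexpressed in breast cancer, and CDK4 and CDK6 are drug targets in that disease. MDA-MB-231 carries a normal RB1 gene and lacks CDKN2A, the gene for the CDK4 and CDK6 inhibitor p16.

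The line's mesenchymal and keratin markers VIM, CD44, KRT18 and KRT8 were between 61.52 and 2053.39 FPKM in every library. ESR1 and PGR, the hormone receptor genes, were at or below 0.04. Of the other luminal and epithelial markers read, GATA3 was between 0.70 and 1.03, CDH1 between 0.24 and 0.39 and EPCAM between 2.26 and 4.70. CDKN2A was between 0 and 0.15. The summed level of 3 fibroblast markers was between 2.30 and 9.54 FPKM, of 3 endothelial markers between 0.39 and 2.38, and of the 3 leukocyte markers found of 4 between 1.09 and 2.47. Each of these 3 sums was higher at both doses after 24 h than in DMSO 24 h, though not each gene in them. At 200 nM 24 h, 2 of the 3 fibroblast markers were higher and COL1A2 was lower, at 0.20 FPKM against 0.30. The endothelial sum was nearly all PECAM1, since CDH5 and VWF were at most 0.03 in any library. The part of these markers in the results was not tested. Library depth, estimated from the spacing of low FPKM values in short genes, was about 15600000 to 18200000 fragments per library. The libraries of 48 h did not follow the order of their labels: of the 521 genes called at least 2-fold higher with 200 nM after 24 h, 439 had a lower value in the 100 nM library of 48 h than in DMSO 48 h, and 496 had a higher value in the 200 nM library of 48 h, by any amount. Such an order would also arise if the DMSO and 100 nM libraries of 48 h had been exchanged, which was not tested, and the labels are used as given. An exchange would turn the sign of each change at 100 nM 48 h and would alter each further value that uses either library. The results below are therefore given for each time on its own, and also as the step from 100 nM to 200 nM. After 24 h this step uses neither of these libraries, and after 48 h it uses the one labelled 100 nM. In bulk RNA of this kind, fewer cells of a type and less RNA per cell cannot be told apart.

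CCND1 was the most abundant of the 9 genes in every library, and CCND2 was the least abundant. CCND1 was between 192.02 and 299.19 FPKM. CDK4, between 52.35 and 87.01, and CCND3, between 55.98 and 81.84, came next, and their order changed with the library: CDK4 was higher in DMSO 24 h, and CCND3 was higher at 200 nM 24 h. CDK2 was between 39.14 and 49.44, RB1 between 23.12 and 31.16, and RBL1 between 14.16 and 20.47. CDK6, between 7.09 and 11.32, and RBL2, between 8.77 and 13.27, overlapped. CCND2 was between 0.03 and 1.11. With 1 library per condition, neighbours in this order cannot be compared with a spread between replicates.

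**Figure D1:**
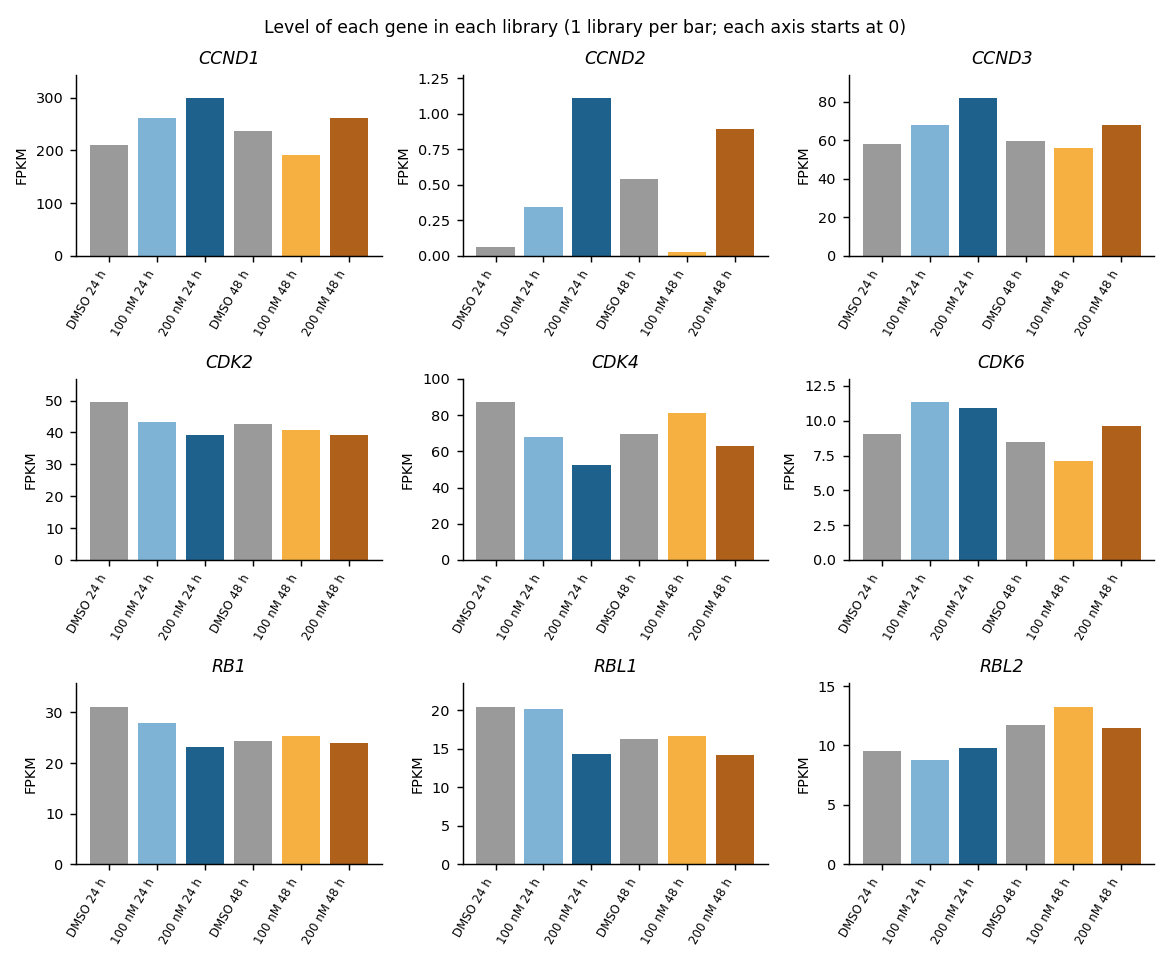
FPKM of the 9 genes in the 6 libraries, 1 panel per gene and 1 bar per library, each vertical axis starting at 0. After 24 h the bars of CCND1, CCND2 and CCND3 step up from DMSO to 200 nM, and those of CDK2, CDK4, RB1 and RBL1 step down.

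The change of a gene was taken as its log2(FPKM + 1) with PCI-24781 minus that with DMSO for the same number of hours. Calls required a 2-fold difference on this scale and a level of 1 FPKM or more on one side of the comparison. The pseudocount of 1 understates the change of a gene with low values. By this rule, 0 of the 9 genes were called in any of the 4 comparisons. Over all genes tested, the share called after 24 h was 1.48% for 100 nM (1.35% higher, 0.131% lower) and 5.94% for 200 nM (4.47% higher, 1.48% lower). The share called after 48 h was 0.469% for 100 nM (0.0608% higher, 0.408% lower) and 0.266% for 200 nM (0.206% higher, 0.06% lower). Between DMSO 48 h and DMSO 24 h, 0 of the 9 genes were called too, against 2.62% of all genes (2.49% higher, 0.131% lower). CCND2 had enough expression for the rule at 200 nM 24 h only, so 8 of the 9 genes were tested in the other comparisons. The median change of the 9 genes was -0.02, 0.02, -0.07 and -0.03 in the order of the comparisons just given, beside 0.01, 0.01, -0.01 and 0.01 over all genes tested. These medians near 0 cover genes that differed in opposite directions.

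After 24 h, the cyclins were higher with PCI-24781 and most of the kinases and pocket proteins were lower. The order DMSO, 100 nM, 200 nM was a rising one for CCND1, CCND2 and CCND3, and a falling one for CDK2, CDK4, RB1 and RBL1. Of the 8 genes that reached 1 FPKM in all 6 libraries, 2 had the rising order and 4 the falling one. Among all 10810 such genes, 30.1% had the rising order and 32.3% the falling one, so an ordered pattern alone was common.

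CCND1 (NCBI Gene ID 595) spans positions 69455873 to 69469242 of chromosome 11 in hg19, the build of the coordinates given here for genes. It encodes cyclin D1. Its FPKM was 210.17 in DMSO 24 h, 262.47 with 100 nM and 299.19 with 200 nM after 24 h. After 48 h the level was 237.21 with DMSO, 192.02 with 100 nM and 260.67 with 200 nM. The 200 nM library was thus the highest at each time, and the 100 nM library stood above DMSO at 24 h and below it after 48 h. The changes were 0.32 and 0.51 after 24 h, then -0.30 and 0.14 after 48 h. At 200 nM 24 h the FPKM ratio to DMSO was 1.42, and counting error alone, from about 22293 and 16475 fragments, gives an approximate 95% interval of 1.40 to 1.45. Of the genes tested there, 84.7% had a lower change. Between the DMSO libraries CCND1 differed by 0.17, higher after 48 h.

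CCND3 (NCBI Gene ID 896, positions 41902671 to 42016632 of chromosome 6) encodes cyclin D3 and is listed with 6 transcripts. Its FPKM was 58.22, 68.02 and 81.84 in DMSO, 100 nM and 200 nM at 24 h, and 59.47, 55.98 and 68.11 after 48 h. It had the same order of libraries as CCND1 at each time. The changes were 0.22 and 0.48 after 24 h, then -0.09 and 0.19 after 48 h. The DMSO libraries differed by 0.03, a difference that changed sign when the libraries were rescaled by median-of-ratios factors.

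CCND2 (NCBI Gene ID 894, positions 4382902 to 4414522 of chromosome 12) encodes cyclin D2, which is scarce in these cells. Its FPKM was 0.06 in DMSO 24 h, 0.34 with 100 nM and 1.11 with 200 nM, from about 7, 38 and 124 fragments. After 48 h it was 0.54 with DMSO, 0.03 with 100 nM and 0.89 with 200 nM, from about 62, 3 and 90 fragments. The low libraries were DMSO 24 h and 100 nM 48 h, and the other four were at least 0.34. On the FPKM scale without a pseudocount, the ratio to DMSO 24 h was 5.67 at 100 nM, with an approximate 95% counting interval of 2.51 to 15.1, and 18.5 at 200 nM, with an interval of 8.78 to 47.3. After 48 h the ratio to DMSO was 0.0556 at 100 nM, with an interval of 0.00955 to 0.146, and 1.65 at 200 nM, with an interval of 1.18 to 2.31. The ratio of DMSO 48 h to DMSO 24 h, without any inhibitor, had an interval of 4.17 to 23.6, which overlaps the intervals of both doses after 24 h. As a difference in log2(FPKM + 1), the change at 200 nM 24 h was 0.99, just under the 2-fold threshold. With a pseudocount of 0.1 or 0.01, or with TPM, it passed.

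Because FPKM is scaled by length, the cyclins could be added. Their sum was 268.45 FPKM in DMSO 24 h, 330.83 with 100 nM and 382.14 with 200 nM, and 297.22, 248.03 and 329.67 after 48 h. The make-up of the sum hardly moved: CCND1 made between 77.4% and 79.8% of it, CCND3 between 20.0% and 22.6%, and CCND2 between 0.0121% and 0.290%. The higher sums at 200 nM were therefore mostly CCND1, in the proportion in which it was present without the inhibitor.

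CDK4 (NCBI Gene ID 1019) spans positions 58141510 to 58146230 of chromosome 12. It is the main partner kinase of the D-type cyclins by transcript level in these cells. Its FPKM was 87.01 in DMSO 24 h, 68.01 with 100 nM and 52.35 with 200 nM after 24 h. After 48 h the level was 69.54 with DMSO, 81.13 with 100 nM and 62.89 with 200 nM. DMSO 24 h and 100 nM 48 h were the highest libraries, and both 200 nM libraries were the lowest. The changes were -0.35 and -0.72 after 24 h, then 0.22 and -0.14 after 48 h. The change of -0.72 was the lowest of the 9 genes in any comparison, and 4.24% of the genes tested there had a lower one. The FPKM ratio was 0.602, with an approximate 95% counting interval of 0.568 to 0.637 from about 1880 and 3288 fragments. The DMSO libraries differed by -0.32, so DMSO 48 h was nearly as low as 100 nM 24 h. CDK4 overlaps the tetraspanin gene TSPAN31 on the opposite strand by 517 bases. TSPAN31 was between 6.98 and 10.17 FPKM, and whether strand was used in counting is not given in the sources used here.

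The sequence upstream of CDK4 and of RBL1 is shown because these were the genes, among the 6 with a RefSeq promoter entry, with the lowest changes at 200 nM 24 h. Each run holds the 250 bases before the start site, from the minus strand of GRCh38.p14, at chr12:57752311-57752560 for CDK4 and at chr20:37095998-37096247 for RBL1. This build differs from that of the files. Capitals mark matches on either strand to CACGTG, the E-box bound by MYC with MAX, to GGGCGG, the GC box bound by SP1, and to TTTCGCGC and TTTGGCGC, sequences of the kind E2F factors bind. A match on the other strand is printed as its reverse complement, so GGGCGG appears as CCGCCC. TGACGTCA and CCAAT were searched too and were in neither window.
CDK4: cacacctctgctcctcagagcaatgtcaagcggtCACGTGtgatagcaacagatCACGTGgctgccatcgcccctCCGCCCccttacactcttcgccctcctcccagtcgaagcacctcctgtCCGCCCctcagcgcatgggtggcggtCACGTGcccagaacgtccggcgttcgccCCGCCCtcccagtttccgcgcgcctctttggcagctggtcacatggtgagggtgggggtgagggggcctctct
RBL1: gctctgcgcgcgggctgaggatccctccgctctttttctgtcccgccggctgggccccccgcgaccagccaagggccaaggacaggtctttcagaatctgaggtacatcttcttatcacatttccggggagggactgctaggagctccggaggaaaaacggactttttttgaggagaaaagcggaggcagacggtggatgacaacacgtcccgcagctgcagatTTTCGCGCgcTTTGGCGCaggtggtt

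The CDK4 window held 3 matches to CACGTG and 3 to GGGCGG. The RBL1 window held 1 match each to TTTCGCGC and TTTGGCGC, 2 bases apart and close to the start site. Of all 35116 promoter windows of this length, 6.34% held CACGTG, 42.6% held GGGCGG, 0.439% held TTTCGCGC and 0.550% held TTTGGCGC. The 3 windows of CCND3 held no match to CACGTG or to either E2F sequence, and between 0 and 5 to GGGCGG. A match describes the letters only, since binding was not measured here. The windows of CDK6, RB1 and RBL2 held no match to CACGTG or to either E2F sequence. For GGGCGG, the CDK6 windows held 0 and 3 matches, and those of RB1 and RBL2 held 0. The window of RB1 starts from a site inside the gene. CCND1, CCND2 and CDK2 are not in the promoter table.

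CDK6 (NCBI Gene ID 1021, positions 92234235 to 92465941 of chromosome 7) encodes the other kinase of the D-type cyclins. Its FPKM was 9.05, 11.32 and 10.93 in DMSO, 100 nM and 200 nM at 24 h, and 8.46, 7.09 and 9.60 after 48 h. It did not follow CDK4: it was higher than DMSO at both doses after 24 h, with changes of 0.29 and 0.25, and after 48 h its changes were -0.23 and 0.16. The ratio of CDK4 to CDK6 was 9.61 in DMSO 24 h, 6.01 with 100 nM and 4.79 with 200 nM, and 8.22, 11.4 and 6.55 after 48 h. The sum of CDK4 and CDK6 was 96.06, 79.33 and 63.28 FPKM after 24 h, then 78.00, 88.22 and 72.49 after 48 h.

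The cyclin sum and the kinase sum thus stood in opposite orders at each time. The level of D-type cyclin transcripts per CDK4 and CDK6 transcript was 2.79 in DMSO 24 h, 4.17 with 100 nM and 6.04 with 200 nM after 24 h. After 48 h the level was 3.81 with DMSO, 2.81 with 100 nM and 4.55 with 200 nM. The 200 nM library had the highest ratio at each time, and the 100 nM 48 h library was about as low as DMSO 24 h. These are ratios of transcript levels, and protein was not measured in this series.

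**Figure D2:**
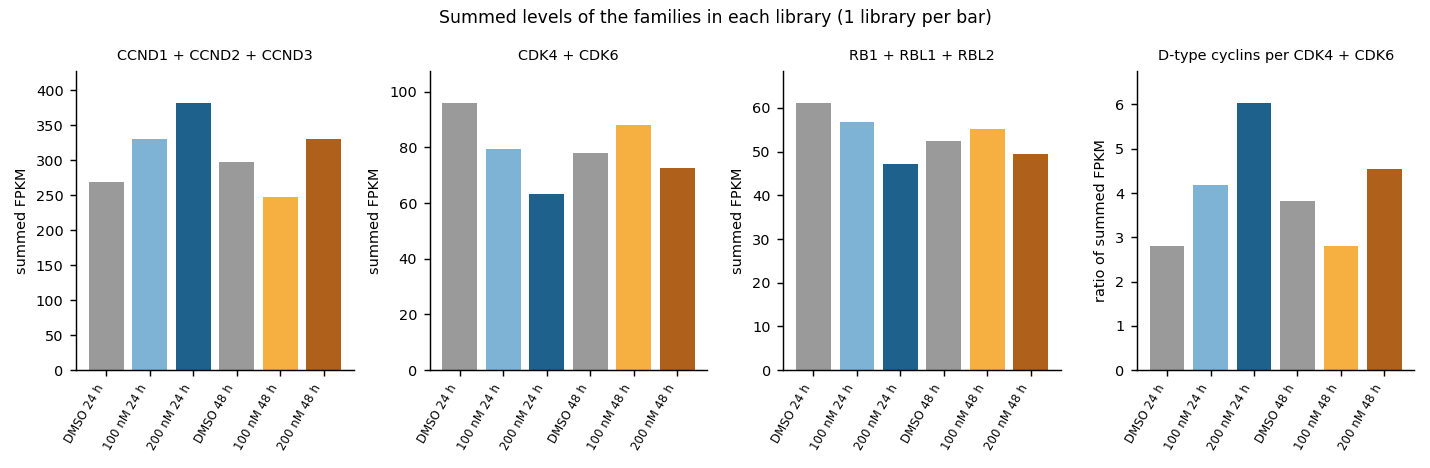
Summed FPKM of the D-type cyclins, of CDK4 and CDK6 and of the RB family, and the ratio of the cyclin sum to the kinase sum, with 1 bar per library and each axis starting at 0. The ratio runs from 2.79 in DMSO 24 h to 6.04 at 200 nM 24 h, and after 48 h it is lowest at 100 nM.

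CDK2 (NCBI Gene ID 1017, positions 56360553 to 56366573 of chromosome 12) acts with cyclins E and A after the D-type complexes. Its FPKM was 49.44, 43.24 and 39.14 after 24 h, then 42.67, 40.70 and 39.20 after 48 h, in the order DMSO, 100 nM, 200 nM. CDK2 was the only one of the 9 genes that was lower at each higher dose at both times. Its changes were -0.19, -0.33, -0.07 and -0.12, for 100 nM and 200 nM after 24 h and then after 48 h. The DMSO libraries differed by -0.21, which is larger than the change in 3 of the 4 comparisons.

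Of the pocket proteins, RB1 and RBL1 were lower at 200 nM 24 h and RBL2 was not. RB1 (NCBI Gene ID 5925, positions 48877883 to 49056026 of chromosome 13) stood at an FPKM of 31.16 with DMSO, 27.87 with 100 nM and 23.12 with 200 nM at 24 h, and of 24.40, 25.26 and 23.90 after 48 h. DMSO 24 h and 100 nM 24 h stood above the other four libraries, which lay between 23.12 and 25.26 FPKM. The changes were -0.16 and -0.42 after 24 h, then 0.05 and -0.03 after 48 h. The DMSO libraries differed by -0.34, close to the change at 200 nM 24 h. The FPKM ratio at 200 nM 24 h was 0.742, with an approximate 95% counting interval of 0.699 to 0.787, whereas after 48 h the intervals of both doses included 1.

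RBL1 (NCBI Gene ID 5933, positions 35624752 to 35724403 of chromosome 20), which encodes p107 and is itself a textbook E2F target, stood at an FPKM of 20.47, 20.21 and 14.37 after 24 h, and then of 16.24, 16.67 and 14.16 after 48 h. Its level at 100 nM was close to DMSO at each time, and both 200 nM libraries were the lowest. The changes were -0.02 and -0.48 after 24 h, then 0.04 and -0.19 after 48 h, and the DMSO libraries differed by -0.32.

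RBL2 (NCBI Gene ID 5934, positions 53468351 to 53525560 of chromosome 16) encodes p130, the pocket protein of resting cells. Its FPKM was 9.57, 8.77 and 9.75 after 24 h, then 11.71, 13.27 and 11.47 after 48 h. Each 48 h library was higher than each 24 h library. The changes were -0.11, 0.02, 0.17 and -0.03, and the one of 0.02 changed sign with median-of-ratios rescaling. The DMSO libraries differed by 0.27, the largest of its 5 differences. The share of RBL2 in the summed RB family was 15.6% with DMSO, 15.4% with 100 nM and 20.6% with 200 nM after 24 h, and between 22.4% and 24.0% after 48 h. RBL2 overlaps AKTIP, and RB1 holds LPAR6, both on the opposite strand. AKTIP was between 6.31 and 8.06 FPKM and LPAR6 between 0.02 and 0.19, and reads of such pairs cannot be told apart if strand was not used. The summed RB family was 61.20, 56.85 and 47.24 FPKM after 24 h, then 52.35, 55.20 and 49.53 after 48 h.

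**Figure D3:**
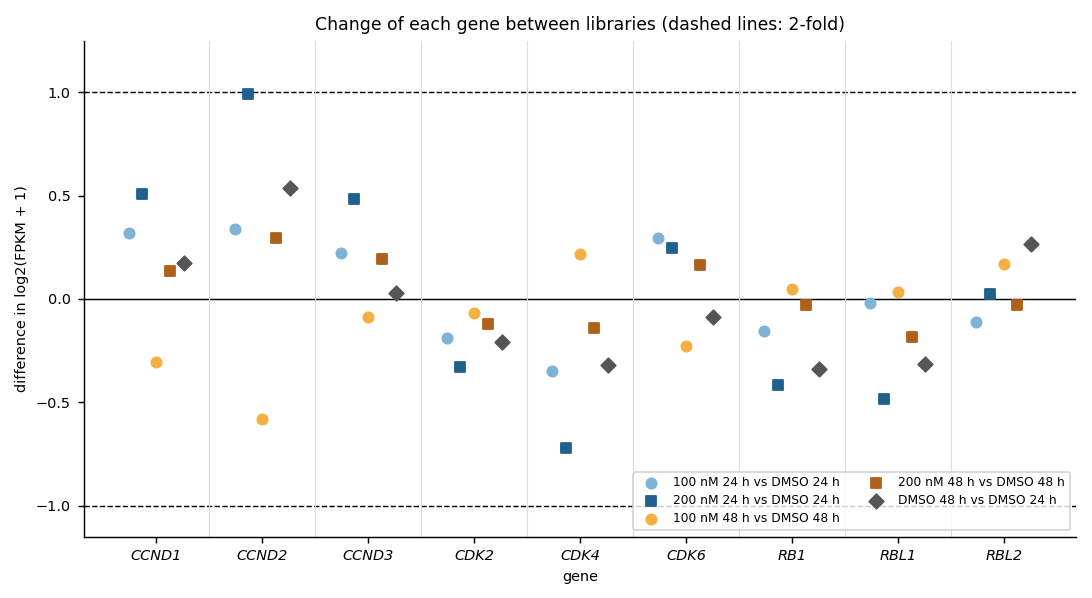
Difference in log2(FPKM + 1) of the 9 genes in the 4 comparisons of PCI-24781 with DMSO of the same time and between the DMSO libraries, 1 point per comparison, with dashed lines at 2-fold. No point lies beyond the dashed lines, CCND2 at 200 nM 24 h is nearest at 0.99, and the points at 100 nM 48 h lie on the other side of 0 from those after 24 h for each gene but CDK2 and RBL2.

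The DMSO libraries give the only measure of how far these genes differ without the inhibitor, and that measure includes the difference in time. At 200 nM 24 h, 8 of the 9 genes had a larger change than between the DMSO libraries, all but RBL2. This held for 62.2% of the 10810 genes that reached 1 FPKM in all 6 libraries. The number was 4 of 9 at 100 nM 24 h, beside 40.9% of all genes, 4 of 9 at 100 nM 48 h, beside 32.1%, and 2 of 9 at 200 nM 48 h, beside 30.3%. All of these comparisons share a DMSO library with the DMSO pair.

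The step from 100 nM to 200 nM uses different libraries after 24 h and after 48 h and none labelled DMSO. After 48 h it uses the 100 nM library, so an exchange of labels with DMSO 48 h, which was not tested, would alter it. CCND1 was higher at 200 nM by 0.19 after 24 h and by 0.44 after 48 h. CCND3 was higher by 0.26 and 0.28, and CCND2 by 0.66 and 0.88. CDK4 was lower at 200 nM, with differences of -0.37 and -0.36, as was RBL1, with -0.46 and -0.22. CDK2 had differences of -0.14 and -0.05, and RB1 of -0.26 and -0.08. CDK6 had -0.05 and 0.39, and RBL2 had 0.14 and -0.19. The direction was the same at both times for 7 of the 9 genes, and for 6 of the 8 that reached 1 FPKM in all 6 libraries, against 56.8% of all 10810 such genes.

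After 48 h, 3 of these 8 genes (CCND1, CCND3 and CDK6) had the order 100 nM lowest, DMSO in the middle and 200 nM highest. The reverse order was found for 4 (CDK4, RB1, RBL1 and RBL2). Over all genes these orders made 27.7% and 26.7%. Taking DMSO 24 h as the reference for the 48 h libraries in place of DMSO 48 h, a reference chosen after seeing the data, again 0 of the 9 genes were called at either dose, against 1.87% of all genes tested at 100 nM and 5.16% at 200 nM. At 100 nM this turned the sign of CDK4 to -0.10, of RB1 to -0.29 and of RBL1 to -0.28. CCND1 was at -0.13 there, CCND2 at -0.04, CCND3 at -0.06, CDK2 at -0.27, CDK6 at -0.31 and RBL2 at 0.43. At 200 nM it turned the sign of RBL2 to 0.24. The other genes kept their sign at that dose, with CCND1 at 0.31, CCND2 at 0.83, CCND3 at 0.22 and CDK6 at 0.077. CDK2 was at -0.33, CDK4 at -0.46, RB1 at -0.37 and RBL1 at -0.50, each further from 0 than against DMSO 48 h.

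The other genes of the pathway were read from 7 lists of genes by role. Of 7 CDK inhibitor genes, which encode proteins that bind and block CDKs or their complexes with cyclins, 5 were tested. CDKN1A, which encodes p21, was called higher with both doses after 24 h, and CDKN1C, which encodes p57, at 200 nM 24 h. CDKN1A stood at an FPKM of 13.18, 30.61 and 48.84 after 24 h, and then of 44.25, 25.81 and 52.88 after 48 h, with changes of 1.16, 1.81, -0.76 and 0.25. It was lowest in DMSO 24 h, and its order of libraries after 48 h was that of CCND1. CDKN1C had 0.65, 1.48 and 2.72 after 24 h, then 3.91, 3.41 and 4.23 after 48 h, so all 48 h libraries were higher than all 24 h libraries. Both genes were also called higher between the DMSO libraries, at 48 h, by 1.67 and 1.57. No CDK inhibitor was called lower in any of the 4 comparisons, and none was called after 48 h.

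The genes listed as E2F targets, most of them for DNA replication, were mostly lower at 200 nM 24 h. Of 20 E2F target genes, 3 were called lower at 200 nM 24 h, beside 1.48% of all genes tested, and 0 were called in the other comparisons. TYMS, which encodes thymidylate synthase, had 152.80, 88.21 and 38.36 FPKM after 24 h, then 101.70, 97.36 and 79.10 after 48 h, with a change of -1.97 at 200 nM 24 h. MCM5 and MCM6, which encode subunits of the replicative helicase, were called just past the threshold, MCM5 with 39.48 FPKM in DMSO and 19.23 with 200 nM, and MCM6 with 41.44 and 20.20. Of the 20 genes, 19 were lower by any amount at each dose after 24 h, with medians of -0.22 and -0.71. After 48 h, 14 were lower at 100 nM and 18 at 200 nM, with medians of -0.05 and -0.11. Between the DMSO libraries 19 of the 20 were lower after 48 h, with a median of -0.34. TK1, which encodes thymidine kinase, was the gene of this list that was not lower at 200 nM 24 h, with 99.26, 92.02 and 109.74 FPKM.

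Among the 10 genes of cyclins E and A and of CDK activation, CCNE2 was called lower at 200 nM 24 h, where 5 of the 10 were lower and 5 higher by any amount. It encodes cyclin E2, and its FPKM was 24.13, 20.26 and 10.16 after 24 h, then 12.57, 9.24 and 12.64 after 48 h, with a change of -1.17 at 200 nM 24 h. DMSO 24 h and 100 nM 24 h were the only libraries above 12.64. The 10 E2F and DP genes had 0 calls, with a median of -0.28 at 200 nM 24 h and 8 of the 10 lower. The 7 genes of the MuvB core, B-MYB and FOXM1, which act with the pocket proteins or after them on cell cycle genes, had 0 calls as well. Their median at 200 nM 24 h was -0.61, with 6 of the 7 lower, and at 200 nM 48 h it was -0.04.

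Of 13 genes for D-type cyclin turnover, 12 were tested and SKP2 was called lower at 200 nM 24 h. SKP2 encodes the F-box protein that marks the CDK inhibitor p27 for destruction, and it had 20.89, 16.44 and 9.44 FPKM after 24 h, then 15.97, 13.74 and 14.02 after 48 h. AMBRA1, the adaptor that brings D-type cyclins to their ubiquitin ligase, was between 5.91 and 7.22 in all 6 libraries. The list's median was -0.00 at 200 nM 24 h, with changes from -1.07 to 0.40. By a 1.5-fold limit, 4 of the 13 genes were lower there (SKP2, FBXO4 at -0.96, CUL1 at -0.72 and RBX1 at -0.68) and 0 were higher. Over all genes tested there, 2346 of 11660 passed that limit in either direction. Of the 7 other CDK genes, 6 were tested at 200 nM 24 h and 0 were called in any comparison. Their changes ran from -0.32 to 0.93 at 200 nM 24 h and from -0.59 to 0.77 at 200 nM 48 h. Both upper ends came from a gene at or below 1.59 FPKM in every library, and both lower ends from another at or below 1.61. CDK16 was between 45.44 and 48.19 in all 6 libraries. Beside these medians, the median over all genes tested was between -0.01 and 0.01.

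**Figure D4:**
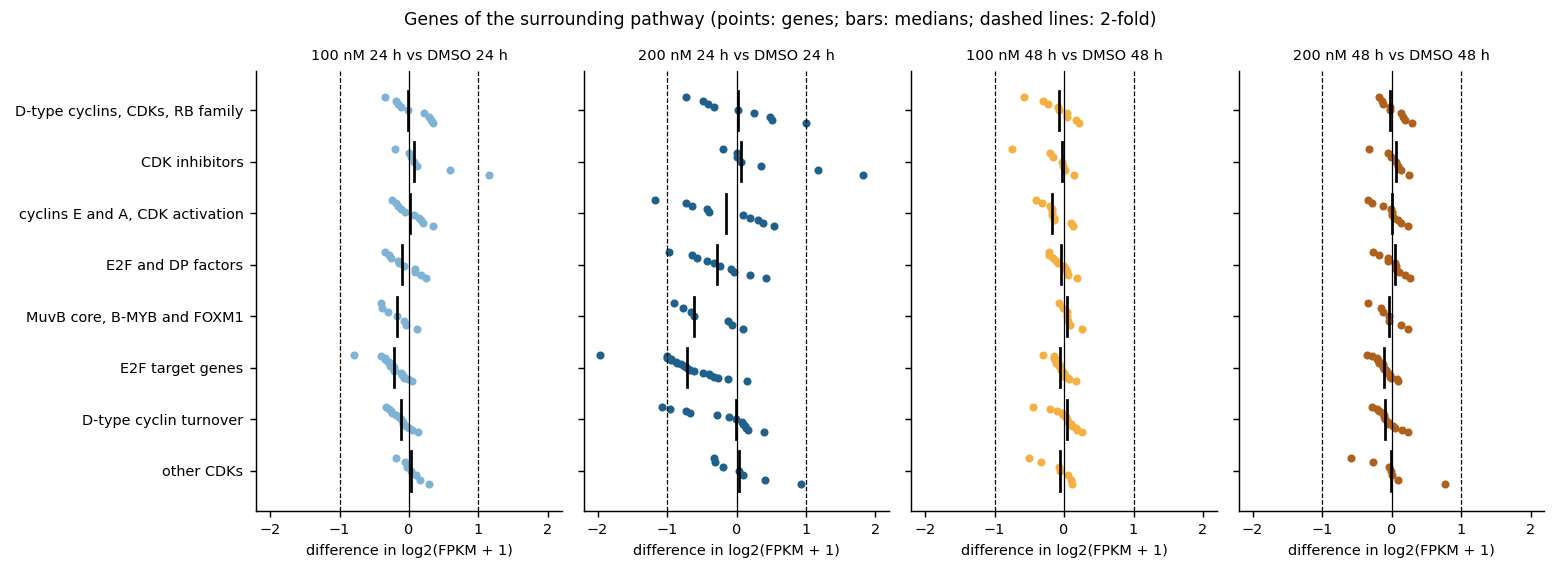
Difference in log2(FPKM + 1) for each gene of the 8 lists in the 4 comparisons with DMSO of the same time, 1 point per gene, with black bars at the list medians and dashed lines at 2-fold. At 200 nM 24 h the points of the E2F target genes lie mostly left of 0 around a median of -0.71, while the 9 genes of the top row spread to both sides.

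For the 7 genes of the 9 that spanned at least 0.5 on the log2 scale over the 6 libraries and reached an FPKM of 1, the most similar genes were found among 10810. Likeness was measured as the root mean square difference of log2(FPKM + 1) after subtracting each gene's mean over the 6 libraries. The nearest to CCND1 were MPZL1, CMTM1 and NME7, at 0.036, 0.037 and 0.041. CMTM1 was between 1.22 and 2.45 FPKM, where the pseudocount of 1 understates changes. Its likeness to CCND1 therefore does not extend to the size of fold changes in FPKM. The nearest to CCND3 were EXT1, SNAP23 and EPG5, at 0.029, 0.030 and 0.035. CCND2 was nearest to MYC, at 0.066, whose FPKM was 48.70, 65.29 and 111.93 after 24 h, then 73.36, 51.73 and 88.88 after 48 h, then to SLC35D4 and SLC40A1, at 0.10 each. The pseudocount of 1 understates the changes of CCND2, which was between 0.03 and 1.11 FPKM. Its likeness to MYC therefore does not extend to the size of fold changes in FPKM. MYC encodes a transcription factor of growth and proliferation, and SLC40A1 the iron exporter ferroportin. CDK4 was nearest to WDR6, CERS2 and TM9SF1, at 0.039 to 0.042, and CDK6 to FHL2, at 0.017, and to MTF2 and EEF1E1, at 0.028 and 0.029. RBL1 was nearest to TOPBP1, at 0.018, and then to NASP, at 0.034, and USP36, at 0.038, of which TOPBP1 acts in DNA replication and the damage checkpoint and NASP is a histone chaperone. RBL2 was nearest to KDM3A, at 0.025, and to B2M and EHD2, at 0.036 each. The 6 libraries behind each comparison are the same.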

How the data were processed

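The deposited values are FPKM per gene with 2 decimals, as the authors computed them, 1 file for each library. The submitters' processing notes name Bowtie2, RSEM and hg19, without versions. The study's methods describe mRNA libraries made by a company, with mRNA enrichment or rRNA depletion. Filters and strand use are not given in the sources used here. Of 16623 genes, 16585 were named by NCBI Gene ID from RefSeq (GRCh38.p14) and 38 were not. Coordinates are those of the files.

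Changes are differences in log2(FPKM + 1). With neither counts nor replicates, no p-value was computed. Depth came from the spacing of low FPKM values in short single-transcript genes (GENCODE lengths, 251 to 307 genes per library), of which 55.6% to 60.9% fell within 0.1 of a whole fragment, so fragment numbers are approximate. Exact (Clopper-Pearson) 95% intervals of ratios cover counting error only.

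The genes and lists were chosen with earlier results of these data known. Named were all 9 genes and each list gene called in any of the 4 comparisons. Also named were the 3 genes most like each of the 9 with a log2 range of 0.5 or more. AMBRA1, FBXO4, CUL1, RBX1, CDK16 and TK1 were named too, chosen after their values were seen. Other pseudocounts (0.1, 0.01), filters, TPM, median-of-ratios factors, a 1.5-fold threshold and, chosen after seeing the data, another 48 h reference were tried. Python 3.11.15, numpy 2.4.6, pandas 2.3.3, scipy 1.17.1 and matplotlib 3.10.9 were used.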

Additional observations from a re-analysis of the deposited data

Results flagged for a closer look

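Among the 9 genes and the 7 pathway genes called in any of the 4 comparisons, 5 and 2 had changes at 100 nM PCI-24781 of opposite sign at 24 h and at 48 h, each of at least 0.1 on the log2 scale. The same held for 12 of the 74 genes of the 7 pathway lists and for 30.9% of the 10810 genes that reached 1 FPKM in all 6 libraries. With 1 library for each condition, the difference between the times was not tested. The change at 48 h minus that at 24 h was -0.62 for CCND1, -0.92 for CCND2, 0.57 for CDK4, -0.52 for CDK6 and 0.28 for RBL2. Among the CDK inhibitors it was -1.91 for CDKN1A and -0.74 for CDKN1C. At 200 nM, no gene of the 9 and no pathway gene called in the 4 comparisons had such a pair of signs, against 7.13% of the 10810 genes. The sign at 48 h rests on the DMSO and 100 nM libraries being as labelled.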

How the results depend on the processing

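With 1 library per condition, no paired analysis was possible and no replicate could be left out. A fit of dose and time as additive terms over the 6 libraries was not run. Of the 9 genes, CCND2 was called higher at 200 nM 24 h with pseudocounts of 0.1 and 0.01 and with TPM (1 gene each). With a 1.5-fold threshold, CCND2 and CDK4 were called there (2 genes). At 100 nM 48 h, CCND2 was called lower with TPM (1 gene). Over all genes tested at 200 nM 24 h, 1163, 1232 and 2346 of 11660 were called with pseudocounts of 0.1 and 0.01 and the 1.5-fold threshold. With TPM, 1082 genes were called there and 109 at 100 nM 48 h. The median of the genes at 200 nM 24 h was -0.15 when CCND2, below an FPKM of 1 in DMSO, was left out by requiring 1 in both libraries. At 200 nM 48 h it was 0.077 with DMSO 24 h as the reference, chosen after seeing the data. Of the 45 changes of the 9 genes, all 45 kept their sign with both pseudocounts and TPM, and 43 did with median-of-ratios factors.

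The background counts moved more with some settings and little with others. In the order 100 nM and 200 nM after 24 h, the same doses after 48 h, and DMSO 48 h against DMSO 24 h, 170, 693, 54, 31 and 301 genes were called. They were 424, 1163, 153, 128 and 606 with a pseudocount of 0.1, 468, 1232, 173, 153 and 637 with 0.01, 366, 1082, 109, 97 and 531 with TPM, and 780, 2346, 260, 232 and 1198 with a 1.5-fold threshold. Requiring 1 in both libraries gave 109, 474, 31, 20 and 211 in the same order. Median-of-ratios factors gave 159, 679, 49, 30 and 279, and leaving out the filter did not alter the counts. With DMSO 24 h as the reference, 213 genes were called at 100 nM 48 h and 602 at 200 nM 48 h. The changes of low genes grow by construction as the pseudocount shrinks, and TPM multiplies the values by about 2.34 to 2.39, which acts like a smaller pseudocount. Depth limits CCND2 most among the 5 genes with estimated fragments, at about 3 to 124. Counting intervals also included 1 for RB1 at both doses at 48 h and for RBL2 in each comparison with DMSO but 100 nM 48 h.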
